A study of Mus musculus with 24 samples.

Results

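The comparison described here sets the cecum of Cdx2 heterozygous mice against the stomach of wild-type mice. Its members are 6 of the 24 libraries of the series, taken by their labels: 3 libraries of Cdx2+/- cecum and 3 of WT stomach. Both groups came from untreated mice, and nothing in the labels gives them another allele or agent. The 3 libraries of untreated WT cecum serve as another point of reference. The other 15 libraries of the study, which examined Cdx2 in the gut, came from cecum or ileum of mice with conditional Cdx2 deletion, a heterozygous Apc mutation or both, and entered only the shared estimate of spread. The labels give no age, strain, region of the organ or layer of tissue, and do not say whether changed or normal-looking cecum was dissected. Nothing states that the 3 replicates of a group are separate animals, and each p-value therefore refers to the variation among the libraries at hand, which may be technical.

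Cdx2 is a homeobox transcription factor that specifies intestinal epithelium and is normally absent from the stomach. Mice with 1 working copy are known to form growths in the cecum and proximal colon in which gastric and keratinised squamous epithelium lies next to intestinal epithelium. The glandular stomach itself is built from surface mucous cells, which line the pits, and from glands that hold mucous neck cells, acid-secreting parietal cells, enzyme-secreting chief cells and hormone cells; in rodents the forestomach is lined by squamous epithelium. The comparison therefore asks which parts of a gastric programme the heterozygous cecum holds at stomach-like levels, and which intestinal and stromal genes still set the organs apart.

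Levels below are CPM, gene read counts scaled to a common library size with TMM factors, given in the order of replicates 1, 2 and 3. Changes are log2 differences ± SE, positive where the Cdx2+/- cecum was higher, with Benjamini-Hochberg adjusted p-values from the quasi-likelihood test of edgeR, and a gene was called at an adjusted p under 0.05. Gene reads ranged from 53462058 to 67373995 among these 6 libraries. In stomach 23.6 to 28.1% of them fell on the 10 top genes, and in Cdx2+/- cecum 7.70 to 8.49%. The stomach libraries were not alike: gastrin (Gast) and the antral factor Nkx6-3 were high in replicate 3, and interferon response genes were high in replicate 1. WT cecum replicates 1 and 2 held some stomach transcripts, for example Gkn1 at 114, 305 and 1.56 CPM. All 24 libraries share 1 estimate of spread, and the part of these transcripts in the SE of gastric genes was not tested.

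Of 20502 genes tested, 3936 were higher in the Cdx2+/- cecum, which is 19.2%, and 4073 were lower, which is 19.9%, or 39.1% in either direction. The median change of all tested genes was 0.002. Against WT cecum the same libraries had 3500 genes higher (17.1%) and 3546 lower (17.3%), or 34.4% in all. Counts of list members below are to be read against those shares. In bulk tissue, fewer cells of a type and less RNA per cell cannot be told apart.

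**Figure D1:**
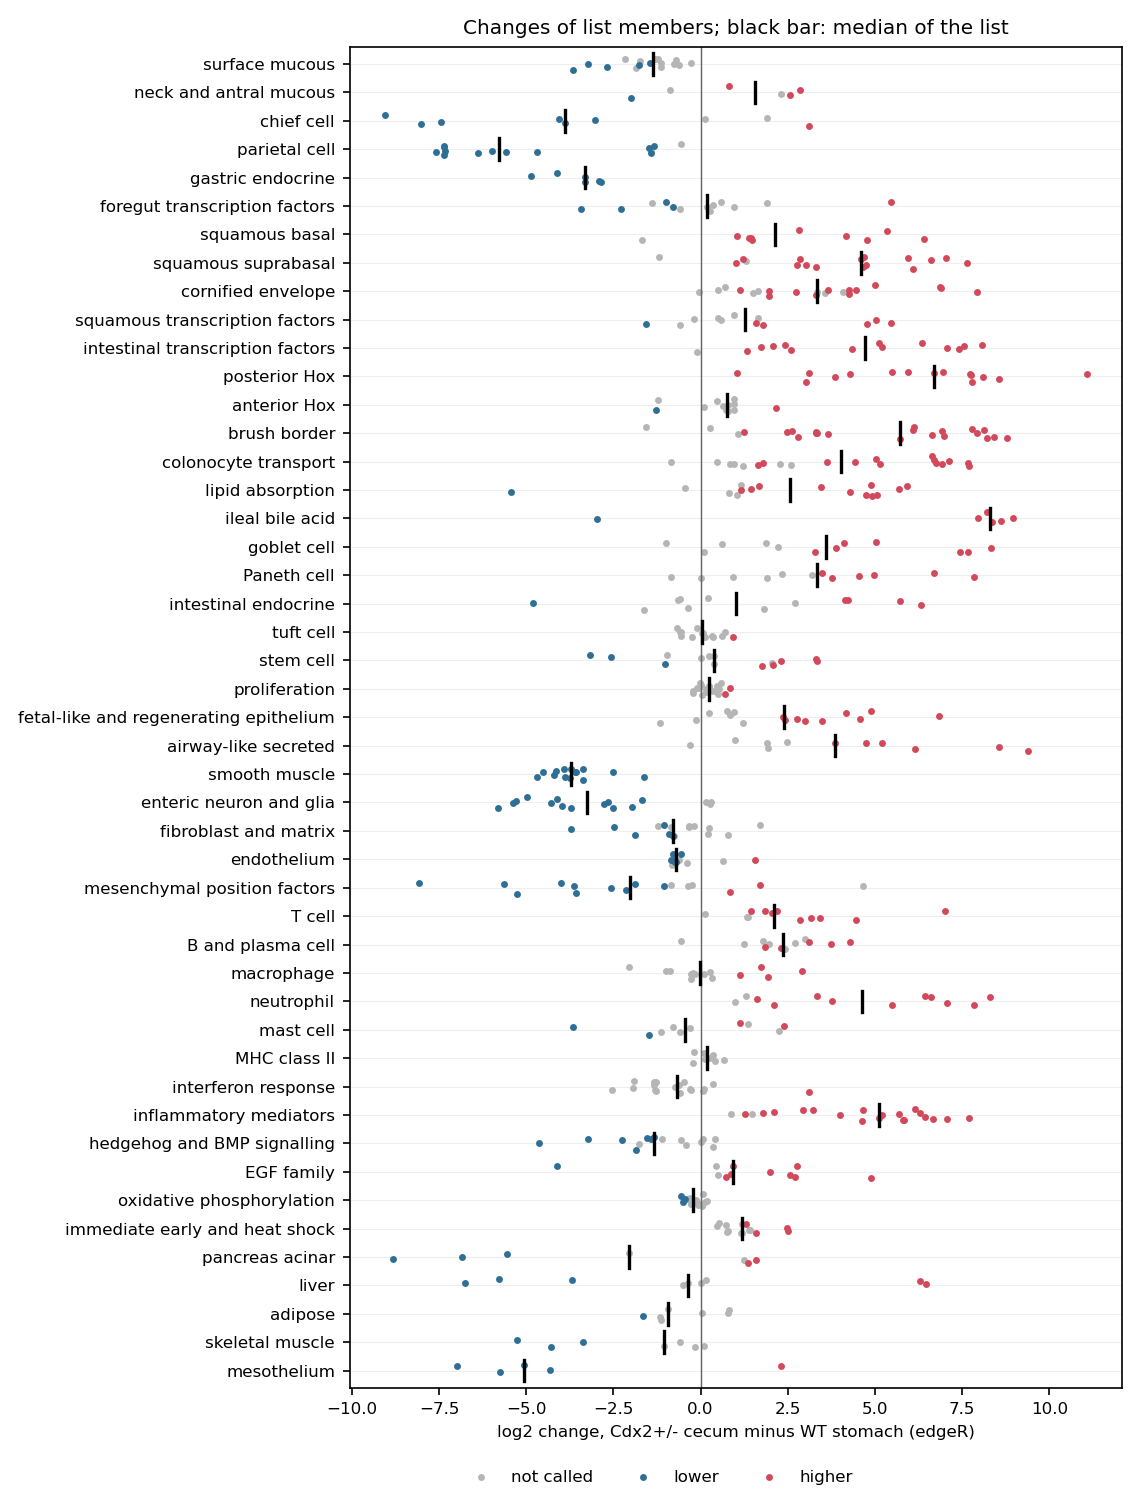
Log2 change between Cdx2+/- cecum and WT stomach (x axis, edgeR) for every tested member of each gene list (y axis); each point is 1 gene, coloured by its call, and the black bar is the median of the list. Most parietal cell, smooth muscle and mesothelium members lie far to the left, and most posterior Hox, brush border and ileal bile acid members to the right. Surface mucous members lie left of 0, from -3.65 to -0.27.

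Surface mucous genes of the heterozygous cecum lay below stomach and far above normal cecum. Their summed level was 33378, 34773 and 33962 CPM in Cdx2+/- cecum, 115540, 123280 and 111520 CPM in stomach and 321, 866 and 80.9 CPM in WT cecum. Of 16 members 5 were called lower than in stomach, against 19.9% of all tested genes, 11 were not called and none was called higher, with a median of -1.38. In 14 members all 3 Cdx2+/- libraries lay below all 3 stomach libraries, and against WT cecum all 16 were called higher. When only the 6 libraries compared were fitted, 14 of the 16 were called lower, while 3 were without Cdx2+/- cecum replicate 1, 2 or 3 or WT stomach replicate 2.

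Gastrokine 1 (Gkn1), a secreted protein of pit cells, had 12367, 13181 and 13349 CPM in Cdx2+/- cecum and 43103, 49145 and 38329 CPM in stomach. The groups did not overlap, but the change of -1.75 ± 1.12 was not called (adjusted p = 0.231, edgeR); with the 6 libraries alone it was -1.79 ± 0.23 (adjusted p = 0.000952, edgeR). The aspartic protease cathepsin E (Ctse) had 1519, 1573 and 1281 CPM against 3195, 3153 and 3220.4 CPM, again without overlap. The trefoil peptide Tff1 stood at 288, 246 and 219 CPM against 577, 625 and 538 CPM. Neither was called (-1.13 ± 0.61 and -1.21 ± 1.02).

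The members that were called lower included the major surface mucin. Muc5ac had 995, 1041 and 1829 CPM in Cdx2+/- cecum and 8671, 11310 and 16065 CPM in stomach, a change of -3.22 ± 1.21 (adjusted p = 0.0408, edgeR). The anion transporter Slc26a9 fell furthest within the list, from 594, 533 and 292 CPM in stomach to 33.7, 40.7 and 38.8 CPM (-3.65 ± 0.60, adjusted p = 0.000113, edgeR). The stomach calpains Capn8 (-1.78 ± 0.38) and Capn9 (-2.70 ± 0.74) and the junction protein Vsig1 (-1.45 ± 0.51) were the other 3. The call of Muc5ac was lost without Cdx2+/- cecum replicate 1, 2 or 3 or WT stomach replicate 2 or 3 (adjusted p between 0.0654 and 0.119, edgeR), and that of Vsig1 was lost without Cdx2+/- cecum replicate 1, 2 or 3 or WT stomach replicate 1 or 2 (adjusted p between 0.0505 and 0.076, edgeR). With the 6 libraries alone both were called (-3.26 ± 0.37 and -1.49 ± 0.11, adjusted p = 0.000549 and 0.000115, edgeR). With the 9 untreated libraries Muc5ac was not called (adjusted p = 0.0976, edgeR). At the other end, the forkhead factor Foxq1 had 111, 78.9 and 80.4 CPM against 120.3, 94.9 and 110.2 CPM and the membrane mucin Muc1 408, 502 and 412 CPM against 957, 606 and 487 CPM. Both had overlapping groups and were not called (-0.27 ± 0.35 and -0.63 ± 0.67). The remaining 6 members, Gkn2, Psca, Anxa10, Cldn18, Mucl3 and Sult1c2, changed by values between -2.16 ± 0.86 and -0.70 ± 1.27 and were not called.

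Neck and antral mucous genes did not follow the surface genes. Trefoil factor 2 (Tff2), made by mucous neck and antral gland cells, had 8643, 5909 and 6539 CPM in Cdx2+/- cecum against 1050.4, 1259.7 and 1977 CPM in stomach. All 3 heterozygous libraries were above all 3 stomach libraries, and the change of 2.30 ± 1.10 was not called (adjusted p = 0.104, edgeR) with all libraries in, while the 6 libraries alone gave 2.25 ± 0.30 (adjusted p = 0.00102, edgeR). Gastrokine 3 (Gkn3), a neck and antral relative of Gkn1, had 1638, 1484 and 1191 CPM against 97.4, 121 and 379 CPM and was called higher (2.85 ± 1.03, adjusted p = 0.0343, edgeR). The water channel Aqp5 was higher too, at 69.3, 128 and 70.6 CPM against 15.9, 9.31 and 19.8 CPM (2.57 ± 0.68, adjusted p = 0.00551, edgeR). For Tff2, Gkn3 and Aqp5 the highest stomach library was replicate 3, the stomach library in which Gast and Nkx6-3 were high. How much antrum each stomach library holds is not given, and its part in these changes was not tested.

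Of the 6 members of this list 3 were called higher, 1 lower and 2 not, with a median of 1.56. Glipr1 was also called higher (0.83 ± 0.30), at 5.43, 4.17 and 5.73 CPM against 2.88, 3.08 and 2.68 CPM. The gland mucin Muc6 had 589, 803 and 623 CPM against 1342, 1292 and 1095 CPM and was not called (-0.89 ± 0.84). Its groups did not overlap, and with the 6 libraries alone the change was -0.93 ± 0.16 (adjusted p = 0.00278, edgeR). A4gnt, the glycosyltransferase that caps gland mucin with N-acetylglucosamine, was lower, at 41.5, 49.2 and 37.2 CPM against 170.2, 182 and 163 CPM (-2.01 ± 0.68, adjusted p = 0.0244, edgeR). The call of Gkn3 was lost without Cdx2+/- cecum replicate 1 or 2 or WT stomach replicate 1 or 2 (adjusted p between 0.0608 and 0.115, edgeR), that of Glipr1 lost without Cdx2+/- cecum replicate 1 or 3 or WT stomach replicate 1, 2 or 3 (adjusted p between 0.0655 and 0.103, edgeR) and that of A4gnt lost without Cdx2+/- cecum replicate 1, 2 or 3 or WT stomach replicate 2 (adjusted p between 0.053 and 0.0759, edgeR). Gkn3, Glipr1 and A4gnt were called with the 6 libraries alone (adjusted p = 0.00506, 0.0114 and 5.61e-05, edgeR). With the 9 untreated libraries Gkn3 and Glipr1 were not called (adjusted p = 0.079 and 0.102, edgeR). The count of members called higher was 1 when the 9 untreated libraries were fitted, and also without Cdx2+/- cecum replicate 1, WT stomach replicate 1 or WT stomach replicate 2.

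The 3 gastrokine genes lie side by side in GRCm38: Gkn1 at chromosome 6, 87345650 to 87350942, Gkn2 at chromosome 6, 87373357 to 87379497 and Gkn3 at chromosome 6, 87383256 to 87388935. Gkn2 had 9729, 10308 and 10258 CPM against 35245, 39314 and 34493 CPM in stomach (-1.85 ± 1.29, not called), so Gkn1 and Gkn2 lay below stomach and their neighbour Gkn3 above it. Their promoter windows, 250 bases before to 50 after the start, are shown because the neighbours moved apart; they are RefSeq sequences of GRCm38.p6, 5′ to 3′ on the strand of the gene, from chr6:87350866-87351165 (minus strand), chr6:87373115-87373414 (plus strand) and chr6:87388886-87389185 (minus strand). Capitals mark AGATAA, a core recognised by GATA factors, searched on both strands with no other motif overlapping it.
Gkn1: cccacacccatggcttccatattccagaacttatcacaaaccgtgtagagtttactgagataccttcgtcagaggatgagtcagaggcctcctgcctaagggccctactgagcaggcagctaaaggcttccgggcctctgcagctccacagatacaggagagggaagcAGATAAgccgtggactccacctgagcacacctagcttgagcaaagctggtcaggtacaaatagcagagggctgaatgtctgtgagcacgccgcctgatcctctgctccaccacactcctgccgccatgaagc
Gkn2: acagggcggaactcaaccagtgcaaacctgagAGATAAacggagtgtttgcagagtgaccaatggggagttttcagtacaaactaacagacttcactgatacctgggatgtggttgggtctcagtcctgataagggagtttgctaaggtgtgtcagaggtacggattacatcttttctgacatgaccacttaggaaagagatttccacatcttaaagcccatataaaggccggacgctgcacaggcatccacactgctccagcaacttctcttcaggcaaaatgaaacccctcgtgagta
Gkn3: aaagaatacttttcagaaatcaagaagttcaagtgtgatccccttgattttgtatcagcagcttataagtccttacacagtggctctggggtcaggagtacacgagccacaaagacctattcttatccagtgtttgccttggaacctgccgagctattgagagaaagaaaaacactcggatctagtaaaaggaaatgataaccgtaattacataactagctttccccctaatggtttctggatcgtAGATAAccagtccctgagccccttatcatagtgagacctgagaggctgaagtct
Each window holds 1 match, whose first base lies at -82, -218 and -4 from the start, respectively. AGATAA is found in 11.2% of the 32851 promoter windows of the table and for 12.7% of its 27025 gene symbols. By symbol, 4 of the 11 surface mucous members and 3 of the 4 neck and antral members with a window there have it. So do 4 of 10 intestinal transcription factors and 2 of 5 goblet cell members, so the motif is not particular to the gastric lists. A match describes these letters and not a bound site.

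Gland genes were far below stomach. The chief cell list summed to 1079, 572 and 1088 CPM in Cdx2+/- cecum and 140980, 162500 and 117200 CPM in stomach, and 6 of its 9 members were called lower, 1 higher and 2 not, with a median of -3.90. Progastricsin (Pgc), a pepsinogen, had 904, 419 and 872 CPM against 130327, 152413 and 103951 CPM (-7.46 ± 1.69, adjusted p = 0.00181, edgeR). Gastric intrinsic factor (Gif), which chief cells make in mice, had 4.80, 2.48 and 7.64 CPM against 1026, 1433 and 1448 CPM (-8.03 ± 1.62, adjusted p = 0.000724, edgeR). Both were called lower with no overlap of libraries. In WT cecum Pgc stood at 16.1, 355 and 1.55 CPM, and it was not called against normal cecum (2.56 ± 1.35, adjusted p = 0.151, edgeR). Every Cdx2+/- library was nevertheless above every WT cecum library for Pgc, and the high WT cecum library was replicate 2.

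Chia1, a chitinase of chief cells, had the largest decrease under the rule for largest changes (a mean of at least 10 CPM in the higher group and no overlap of libraries), from 9250.3, 8288 and 11566 CPM to 4.02, 8.60 and 41.9 CPM (-9.06 ± 1.95). Bhlha15 (Mist1), a transcription factor of mature secretory cells, had 3.34, 2.19 and 2.55 CPM against 39.7, 36.9 and 43.9 CPM (-3.90 ± 0.37). The pepsinogen Pga5 was lower by a smaller step, with 34.3, 18.6 and 8.81 CPM against 212, 198 and 93.9 CPM (-3.03 ± 0.75), and unlike Pgc it was called above WT cecum (6.44 ± 0.95). Cpb1 was lower at low counts (-4.06 ± 0.64). The 1 member called higher was Cym, which encodes the milk-clotting protease chymosin, at 2.17, 5.61 and 11.8 CPM against 0.572, 0.416 and 1.26 CPM (3.12 ± 1.20, adjusted p = 0.0455, edgeR). That call was lost when Cdx2+/- cecum replicate 2 or 3, or any WT stomach replicate, was left out, with adjusted p between 0.0634 and 0.155. Mfsd4a, a membrane transporter, had 127, 115 and 143 CPM against 126, 128 and 97.5 CPM and was not called, and Lipf was at or under 0.0174 CPM in every library of both groups.

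Parietal cell genes were lower throughout most of the list. Of 14 members 12 were called lower, 2 not and none higher, with a median of -5.77. Atp4a, the catalytic subunit of the proton pump, had 75.6, 13.7 and 43.6 CPM against 8356, 9545 and 4123 CPM, and its partner Atp4b 38.0, 7.45 and 25.4 CPM against 4584, 4789.5 and 2293 CPM. The changes were -7.37 ± 1.72 and -7.36 ± 1.40 (adjusted p = 0.00233 and 0.000413, edgeR). The potassium channel subunit Kcne2 had 1.17, 0.139 and 0.458 CPM against 109.6, 119 and 56.8 CPM (-7.35 ± 0.67). Slc26a7, Kcnj15, Kcnj16, the histamine receptor Hrh2, the gastrin receptor Cckbr and Esrrg, a nuclear receptor, changed by values between -7.58 ± 0.87 and -4.69 ± 0.75. Of the 14 members 5 were called higher than in WT cecum, 1 lower and 8 not (median 1.32).

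Smaller decreases were seen for parietal list members that other epithelial cells also use. The sodium/hydrogen exchanger Slc9a4 had 154, 182 and 141 CPM against 466, 412 and 408 CPM (-1.43 ± 0.54) and was far above WT cecum, at 1.24, 3.35 and 0.698 CPM. Its call against stomach was lost without Cdx2+/- cecum replicate 1, 2 or 3 or WT stomach replicate 1, 2 or 3 (adjusted p between 0.0688 and 0.111, edgeR). The groups did not overlap, and with the 6 libraries alone the change was -1.47 ± 0.12 (adjusted p = 0.000165, edgeR). The anion exchanger Slc4a2 (-1.34 ± 0.22) and creatine kinase Ckb (-1.48 ± 0.40) were lower as well. The potassium channel Kcnq1 had 98.8, 91.1 and 85.8 CPM against 155, 166 and 85.1 CPM and was not called (-0.56 ± 0.23), nor was the water channel Aqp4 (-1.43 ± 0.90). Kcnq1 was called without WT stomach replicate 3 (adjusted p = 0.00871, edgeR).

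Hormone cells of the stomach followed the glands. All 6 tested members of the gastric endocrine list were called lower, with a median of -3.32. Ghrelin (Ghrl) had 153, 121 and 149 CPM against 1013, 1182 and 966 CPM (-2.90 ± 0.63, adjusted p = 0.00128, edgeR), and was the 1 member called above WT cecum, where it stood at 1.35, 3.66 and 0.371 CPM. Somatostatin (Sst) had 6.77, 10.2 and 8.52 CPM against 219.9, 269.9 and 255 CPM (-4.87 ± 0.93). The histamine-forming enzyme Hdc (-4.12 ± 0.65), the monoamine transporter Slc18a2 (-2.86 ± 0.20), the ghrelin acyltransferase Mboat4 (-3.32 ± 0.36) and amylin, Iapp (-3.33 ± 0.93), were lower too, and the call of Iapp was lost without WT stomach replicate 3 (adjusted p = 0.0593, edgeR). Gast did not pass the count filter: it had 0, 0.0347 and 0 CPM in Cdx2+/- cecum and 0.118, 0.189 and 301 CPM in stomach, so only stomach replicate 3 held it.

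**Figure D2:**
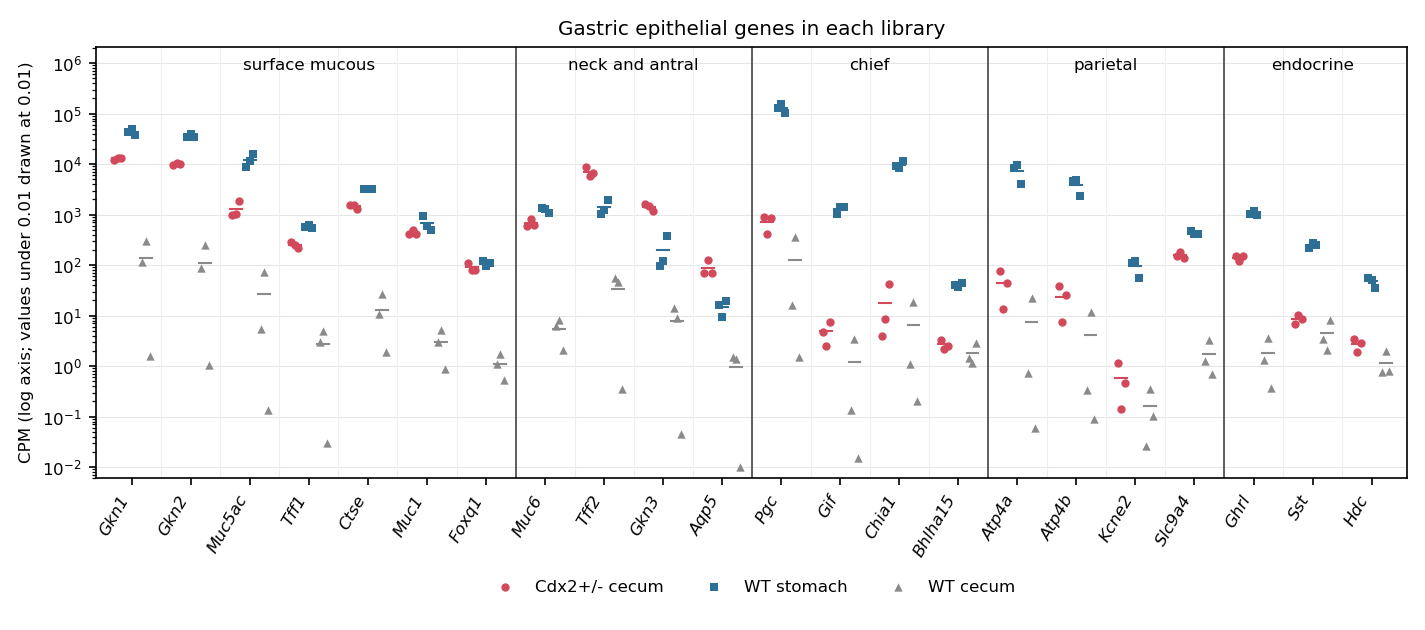
Level of gastric genes in each library (y axis, CPM on a log axis, values under 0.01 drawn at 0.01), grouped by cell type; points are libraries of Cdx2+/- cecum, WT stomach and WT cecum, and short lines are group means. Surface genes of the heterozygous cecum sit under stomach or overlap it, with Muc5ac furthest below. Tff2, Gkn3 and Aqp5 lie above stomach, and chief and parietal genes apart from Slc9a4 lie far below it.

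Transcription factors of the foregut differed from stomach in both directions, from -3.43 ± 1.05 for Nkx6-3 (0.74 without WT stomach replicate 3) to 5.46 ± 0.80 for Pax9, and were called about as often as all tested genes (39.1%). Of 13 members 1 was called higher, 4 lower and 8 not, with a median of 0.18; with the 6 libraries alone 4 were called higher and 5 lower. Sox2, which marks foregut epithelium, had 11.6, 11.1 and 11.4 CPM in Cdx2+/- cecum, 7.96, 7.97 and 6.57 CPM in stomach and 0.397, 0.146 and 0.134 CPM in WT cecum. All 3 heterozygous libraries exceeded all 3 stomach libraries, and the change of 0.60 ± 0.66 was not called (adjusted p = 0.503, edgeR); with the 6 libraries alone it was 0.56 ± 0.12 (adjusted p = 0.00857, edgeR). Gata4, a zinc finger factor of the proximal gut that distal intestine lacks, had 150.2, 131 and 126 CPM against 409, 352 and 307 CPM and was not called (-1.39 ± 1.09). Its groups did not overlap, and with the 6 libraries alone the change was -1.43 ± 0.13 (adjusted p = 0.000216, edgeR). Gata5 had 93.6, 107 and 100.04 CPM against 94.1, 82.0 and 71.1 CPM with overlapping groups (0.28 ± 0.28), and Gata6 was lower (-0.99 ± 0.17, adjusted p = 0.000216, edgeR).

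Pax9, a paired box factor of the oesophagus and forestomach, was the member called higher, at 22.2, 14.6 and 20.6 CPM against 0.710, 0.416 and 0.182 CPM (5.46 ± 0.80, adjusted p = 3.73e-05, edgeR). Pdx1, which marks antrum and duodenum, had 47.0, 35.8 and 30.1 CPM against 1.83, 3.63 and 24.7 CPM. Its heterozygous libraries were all above stomach, where replicate 3 was the high one, and the change of 1.90 ± 0.77 was not called (adjusted p = 0.0577, edgeR); it was called without WT stomach replicate 3 (adjusted p = 0.0012, edgeR). The antral factor Nkx6-3 was called lower (-3.43 ± 1.05, adjusted p = 0.0142, edgeR), but its groups overlapped, with 2.87, 1.84 and 0.733 CPM against 0.394, 1.76 and 56.6 CPM, and the high library was stomach replicate 3. Without that library the change was 0.74 (adjusted p = 0.357, edgeR), and without Cdx2+/- cecum replicate 3 it was not called either (adjusted p = 0.0616, edgeR). Foxa2 (-2.27 ± 0.46) and Foxa3 (-0.81 ± 0.19) were lower, while Foxa1, Pitx1 and Sox21 were not called.

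Squamous genes were higher in the Cdx2+/- cecum than in the stomach libraries, although 1 of the 3 Cdx2+/- libraries held little of the basal and keratin part. Of 10 basal members 9 were called higher and 1 not, with a median of 2.14. Of 17 tested suprabasal members 15 were higher and 2 not (4.59), and of 21 tested cornified envelope members 13 were higher and 8 not (3.33). No member of the 3 lists was called lower. In other fits 1 basal member was, without Cdx2+/- cecum replicate 1 and by DESeq2, and 1 suprabasal member was with the 9 untreated libraries. Without Cdx2+/- cecum replicate 2 the counts higher were again 9, 15 and 13. The cornified count was 7 without Cdx2+/- cecum replicate 1, 7 without WT stomach replicate 2 and 8 with the 9 untreated libraries. With the 6 libraries alone the counts higher were 7, 13 and 9.

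The basal keratins showed the split between libraries. Krt5 had 197, 0.382 and 122 CPM in Cdx2+/- cecum and 7.29, 0.360 and 0.146 CPM in stomach (5.36 ± 1.51, adjusted p = 0.00883, edgeR). Krt14 had 218, 1.01 and 106 CPM against 3.61, 0.151 and 0.0910 CPM (6.40 ± 1.498, adjusted p = 0.00235, edgeR). Trp63, the master factor of stratified epithelia, had 8.90, 0.0174 and 5.44 CPM against 0.453, 0 and 0.0728 CPM (4.77 ± 1.25, adjusted p = 0.00551, edgeR). In each of these genes replicates 1 and 3 were above all stomach libraries, replicate 2 was among them, and within stomach replicate 1 was highest. No stomach library exceeded 7.29 CPM in any of these genes, and the labels do not say whether forestomach was included. With the 6 libraries alone Krt5 and Trp63 were not called (adjusted p = 0.0673 and 0.0579, edgeR). Basal genes that simple epithelia also use did not show the split: the integrin Itga6 had 578, 633 and 703 CPM against 313, 304 and 303 CPM (1.06 ± 0.17) and its partner Itgb4 403, 391 and 482 CPM against 146, 139 and 178 CPM (1.46 ± 0.23).

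Among suprabasal keratins Krt4, typical of non-cornified stratified epithelium, had 113, 0.538 and 18.2 CPM against 1.93, 0.114 and 0.0910 CPM (5.96 ± 1.46). Krt13, its usual partner, had 204, 17.9 and 84.1 CPM against 10.2, 0.7001 and 1.78 CPM (4.59 ± 0.97, adjusted p = 0.001, edgeR), and here replicate 2 was also above every stomach library. The stress keratin Krt16 had 50.05, 0.469 and 36.5 CPM against 0.434, 0 and 0 CPM (7.65 ± 1.44). The desmosomal plakophilin Pkp1 was higher in all 3 libraries, at 67.2, 19.7 and 40.6 CPM against 2.13, 1.42 and 1.22 CPM (4.74 ± 0.40), but WT cecum had 58.6, 45.2 and 48.0 CPM, so this member did not set Cdx2+/- cecum apart from normal cecum (-0.25 ± 0.33). Members of the Krt6 and Sprr families are near-identical and their counts are uncertain.

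Involucrin (Ivl), a scaffold protein of the cornified envelope, did not follow the keratins. It had 14.4, 25.8 and 18.9 CPM in Cdx2+/- cecum, with replicate 2 highest, and 0.335, 0.0568 and 0.109 CPM in stomach (6.88 ± 0.92, adjusted p = 1.54e-05, edgeR). Transglutaminase 1 (Tgm1), which crosslinks the envelope, had 30.8, 1.29 and 12.6 CPM against 0.769, 0.208 and 0.4004 CPM (5.01 ± 0.94). Krtdap, a keratinocyte differentiation gene, had 50.9, 0.104 and 35.9 CPM against 5.13, 0 and 0 CPM and was not called (4.09 ± 1.84, adjusted p = 0.0949, edgeR); it was called without Cdx2+/- cecum replicate 2 or without WT stomach replicate 1 (adjusted p = 0.0444 and 0.00542, edgeR). Thus replicate 2 lay above the stomach libraries for Ivl and Tgm1 and within their range for Krtdap.

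Of 12 tested squamous transcription factors 5 were called higher, 1 lower and 6 not, with a median of 1.28. Grhl3, a grainyhead factor of barrier formation, had 15.6, 9.19 and 9.40 CPM against 0.177, 0.208 and 0.637 CPM (5.04 ± 0.70, adjusted p = 2.13e-05, edgeR). Klf5, used by both basal squamous and crypt cells, had 118, 119 and 152 CPM against 37.4, 38.2 and 37.3 CPM (1.79 ± 0.18) and was not called against WT cecum (149, 150.2 and 149 CPM). Tfap2a (1.59 ± 0.47), Trp63 and Pax9 were the other 3 called higher. The call of Tfap2a was lost without Cdx2+/- cecum replicate 1 (adjusted p = 0.211, edgeR). The related Grhl1 was lower (-1.57 ± 0.36), while Klf4, Ovol1, Tfap2c and Zfp750, like Sox2 and Pitx1, were not called; Tfap2c was called without Cdx2+/- cecum replicate 2 (adjusted p = 0.0375, edgeR). Pax9 and Grhl3 were above every stomach library in all 3 Cdx2+/- libraries, including the one with 0.0174 CPM of Trp63.

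**Figure D3:**
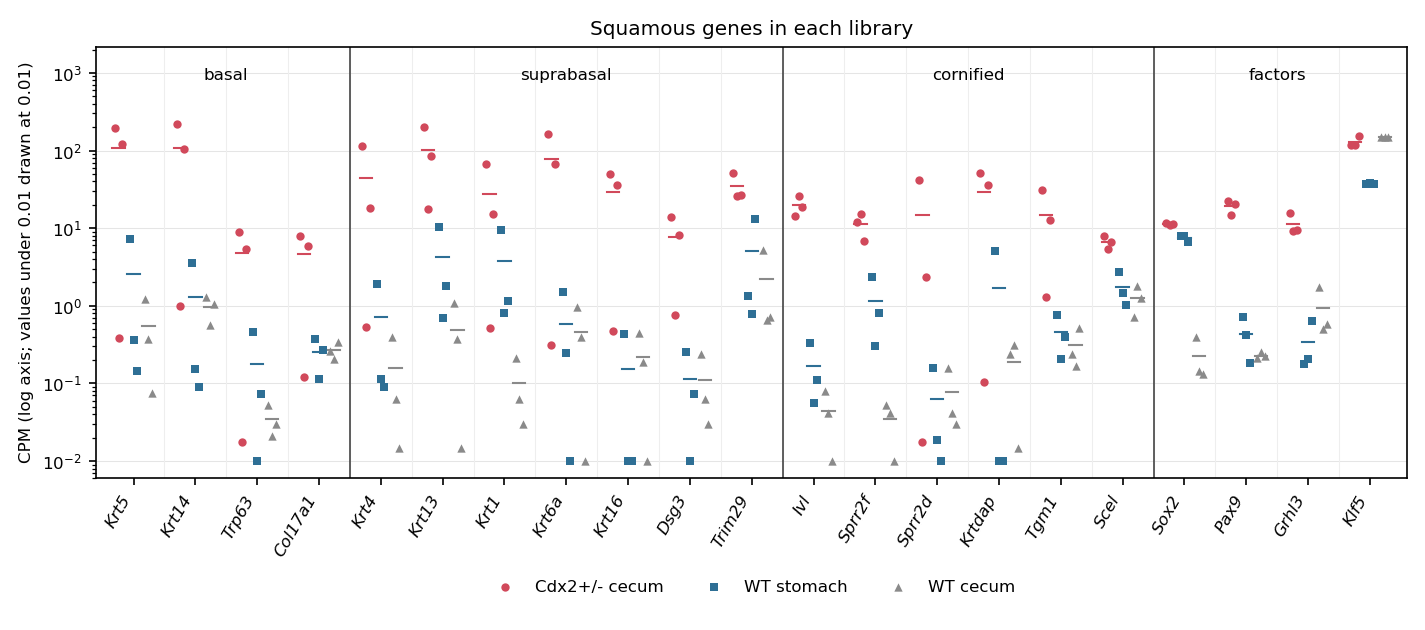
Level of squamous genes in each library (y axis, CPM on a log axis, values under 0.01 drawn at 0.01), by layer; points are libraries and short lines are group means. For Krt5, Krt14, Trp63 and Krt6a 1 of the 3 Cdx2+/- cecum points lies among the stomach points, whereas Ivl, Pax9 and Grhl3 have all 3 above them.

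Intestinal regulators were far above stomach and in part below normal cecum. Cdx2 itself, on the minus strand of chromosome 5, 147300805 to 147307270 in GRCm38, stood at 118, 115 and 116 CPM in Cdx2+/- cecum against 1.52, 0.662 and 0.437 CPM in stomach (7.06 ± 0.62, adjusted p = 1.27e-07, edgeR), and WT cecum had 623, 663 and 408 CPM. Its relative Cdx1 had 105, 107 and 95.3 CPM against 0.729, 0.208 and 0.200 CPM (8.08 ± 1.09, adjusted p = 1.61e-05, edgeR). Of 14 intestinal transcription factors 13 were called higher than in stomach and 1 was not, with a median of 4.73.

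Isx, an intestine-specific homeobox factor that limits vitamin A conversion, had 69.0, 105 and 83.0 CPM against 0.887, 0.265 and 0.346 CPM (7.43 ± 1.16). The vitamin D receptor Vdr (6.34 ± 0.92) and the nuclear receptor Nr5a2 (4.35 ± 0.64) were higher too. Against WT cecum 3 of the 14 were called lower, among them Cdx2 (-2.28 ± 0.49) and Prdm1 (-1.10 ± 0.35), and none higher. Cdx2 thus lay between the WT organs.

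Hox genes, which record position along the body axis, split by paralogue group. All 15 tested posterior Hox genes were called higher, with a median of 6.68. Hoxa9 had 61.9, 47.9 and 43.7 CPM against 0.355, 0.170 and 0.0364 CPM (8.10 ± 0.83, adjusted p = 7.53e-07, edgeR). Hoxc10 had no read in any stomach library and 10.4, 0.973 and 3.53 CPM in Cdx2+/- cecum, which makes it at least 87.6-fold higher with the stomach libraries at 3 reads each, and Hoxa13 was at least 8.63-fold higher by the same floor. These floors cover counting error only. Of 12 tested anterior Hox genes 1 was called higher, Hoxb5 (2.16 ± 0.69), 1 lower, Hoxa4 (-1.29 ± 0.36), and 10 were not called (median 0.75). The call of Hoxb5 was lost without WT stomach replicate 1 (adjusted p = 0.0715, edgeR), and 2 were called lower without that library.

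Brush border genes were higher by large steps. Of 23 members 20 were called higher and 3 not, with a median of 5.71. The intestinal cadherin Cdh17 had 1006, 1362 and 1388 CPM against 9.15, 2.38 and 1.02 CPM (8.23 ± 0.86, adjusted p = 9.3e-07, edgeR), and the brush border myosin Myo7b 359, 453 and 426 CPM against 2.62, 1.12 and 0.673 CPM (8.13 ± 0.87). The glucose carrier Slc5a1 had 175, 398 and 252 CPM against 3.33, 1.74 and 1.75 CPM (6.92 ± 0.96). Espn, the fructose carrier Slc2a5 and lactase (Lct) were not called, and Lct was under 1 CPM throughout.

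Of the 23 brush border members 6 were called above WT cecum, 1 below and 16 not, with a median of -0.14; the 3 enzymes that follow are among the 6 and were chosen for it. Sucrase-isomaltase (Sis), the disaccharidase of the small intestine, had 169, 361 and 367 CPM in Cdx2+/- cecum, 1.93, 0.114 and 0 CPM in stomach and 1.03, 1.49 and 1.56 CPM in WT cecum (8.79 ± 2.03 against stomach, adjusted p = 0.0021, edgeR). Aminopeptidases followed, Anpep with 936, 2121 and 1171 CPM against 169, 124 and 128 CPM (3.33 ± 0.96) and Enpep with 259.6, 534 and 309 CPM against 6.90, 6.62 and 7.57 CPM (5.71 ± 1.25). WT cecum had 15.6, 13.7 and 28.3 CPM of Anpep and 26.7, 63.2 and 31.9 CPM of Enpep. For Anpep and Enpep, Cdx2+/- cecum replicate 2 was the highest library.

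Ileal bile acid genes gave the highest median of any list, 8.29, with 5 of 6 members called higher and 1 lower. Slc10a2, the ileal uptake carrier for bile acids, had 152, 253 and 201 CPM against 1.26, 0.227 and 0.0546 CPM (8.63 ± 1.44, adjusted p = 0.000123, edgeR). Fabp6, which binds bile acids in the cell, had 15.3, 152 and 122 CPM against 0.808, 0.170 and 0 CPM (8.23 ± 2.23), and replicate 1 was the low one of the heterozygous libraries. Fgf15, the hormone by which ileum signals to the liver, had 6.71, 14.3 and 10.6 CPM against 0.0394, 0.0189 and 0 CPM (8.95 ± 2.02); in WT cecum it had at most 0.0209 CPM. The nuclear receptor Nr0b2 (SHP) was lower (-2.96 ± 0.98), a call lost without Cdx2+/- cecum replicate 1 or 3 or WT stomach replicate 1 (adjusted p between 0.053 and 0.0767, edgeR). Against WT cecum 2 of the 6 members, Fgf15 among them, were called higher and 4 were not called (median 1.89). The summed level of the list in WT cecum was 215, 260 and 192 CPM.

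The promoter windows of Sis and Slc10a2 are shown because both genes were near 0 in stomach and carry TTTATNG, an AT-rich core recognised by CDX factors. They are RefSeq sequences of GRCm38.p6 from chr3:72967814-72968113 and chr8:5105238-5105537, both genes on the minus strand, written 5′ to 3′ on the strand of the gene, with the motif in capitals on either strand and no other motif overlapping it.
Sis: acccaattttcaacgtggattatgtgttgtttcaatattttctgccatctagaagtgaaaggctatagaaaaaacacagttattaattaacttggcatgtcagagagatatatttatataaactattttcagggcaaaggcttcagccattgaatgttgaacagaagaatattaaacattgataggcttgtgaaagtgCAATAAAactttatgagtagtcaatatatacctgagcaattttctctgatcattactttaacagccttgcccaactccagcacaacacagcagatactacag
Slc10a2: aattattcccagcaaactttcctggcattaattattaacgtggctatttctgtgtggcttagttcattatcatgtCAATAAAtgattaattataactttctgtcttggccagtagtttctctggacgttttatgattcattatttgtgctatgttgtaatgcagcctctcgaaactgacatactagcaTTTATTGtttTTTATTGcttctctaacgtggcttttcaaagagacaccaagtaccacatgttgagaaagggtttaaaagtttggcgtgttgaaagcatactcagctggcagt
The Sis window holds 1 match, on the opposite strand with its first letter at -52. The Slc10a2 window holds 3, at -62 and -52 on the strand of the gene and at -175 on the opposite strand. TTTATNG is found in 10.9% of all 32851 windows and for 12.5% of the 27025 gene symbols. By symbol, 5 of 18 brush border members with a window, 1 of 5 ileal bile acid members and also 3 of 7 chief cell members have it. The matches describe these letters and draw no line between the lists. Sis was also low in WT cecum, where Cdx2 was above its level in Cdx2+/- cecum. A part of Cdx2 in the levels of Sis and Slc10a2 was not tested.

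Lipid absorption genes were higher in 11 of 16 cases, lower in 1 and not called in 4 (median 2.57). Mttp, which loads lipid onto lipoproteins, had 143, 252 and 163 CPM against 4.46, 2.40 and 2.38 CPM (5.92 ± 0.92), and apolipoprotein B, Apob, 1181, 2569.7 and 1474 CPM against 87.0, 61.5 and 47.2 CPM (4.74 ± 0.53, adjusted p = 2e-06, edgeR). The fatty acid receptor Cd36 was lower, at 3.37, 2.66 and 4.01 CPM against 162, 168 and 106 CPM (-5.44 ± 0.37, adjusted p = 1.13e-08, edgeR). Apoa1 overlapped, at 284, 1179.9 and 625 CPM against 1111, 1163 and 576 CPM, and was not called.

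Colonocyte transport genes were in part above stomach and in part far below normal cecum. Of 20 members 13 were called higher than in stomach and 7 not (median 4.03), while against WT cecum 7 were lower, 1 higher and 12 not. The chloride/bicarbonate exchanger Slc26a3 had 85.7, 73.5 and 79.5 CPM against 6.07, 2.76 and 2.24 CPM in stomach (4.43 ± 1.23) and 2245, 3164 and 1975 CPM in WT cecum. The water channel Aqp8 had 25.6, 19.1 and 11.01 CPM against 5.89, 2.48 and 0.855 CPM, which was not called (2.596 ± 1.59, adjusted p = 0.208, edgeR), and 4556, 3329 and 881 CPM in WT cecum. The sugar phosphate exchanger Slc37a2 had 16.5, 12.9 and 6.54 CPM against 6.21, 4.07 and 5.15 CPM, not called (1.22 ± 0.51), and 2369, 2825 and 1914 CPM in WT cecum. On the log scale Aqp8 and Slc37a2 of the heterozygous cecum were nearer to stomach than to WT cecum, and Slc26a3 lay about midway. Slc37a2 was called without Cdx2+/- cecum replicate 3 (adjusted p = 0.0367, edgeR) against stomach.

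Guanylin (Guca2a), a secreted regulator of fluid transport, kept a clear distance from stomach, with 660.3, 619 and 756 CPM against 6.66, 1.97 and 1.38 CPM (7.67 ± 1.29). The amino acid carrier Slc6a14 had 206, 160.3 and 164 CPM against 1.79, 0.681 and 1.35 CPM (7.11 ± 1.12). The phosphate carrier Slc20a1 was called higher than stomach (1.64 ± 0.26) and lower than WT cecum (-3.53 ± 0.28).

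Goblet cell genes were above stomach and mostly not told apart from normal cecum. Of 12 members 7 were called higher than in stomach and 5 not, with a median of 3.58, and against WT cecum 2 were higher, Agr2 and Spdef, and 10 not called. The intestinal gel-forming mucin Muc2 had 1097, 1610.1 and 1673 CPM against 9.05, 2.80 and 1.87 CPM (8.32 ± 1.11, adjusted p = 1.4e-05, edgeR) and 894, 468 and 1446 CPM in WT cecum. The trefoil peptide Tff3 had 324, 589.8 and 427 CPM against 4.36, 1.34 and 1.95 CPM (7.45 ± 0.99). Agr2, a folding enzyme for mucins, and Spdef, a factor of secretory cells, were not called; Spdef stood at 72.9, 70.3 and 65.1 CPM against 69.7, 75.7 and 49.4 CPM. Clca1 was not called either, and its stomach replicate 3 (228, 492 and 1718 CPM in stomach) came closest to the 3192, 3794 and 1903 CPM of the heterozygous cecum. It was called without WT stomach replicate 3 (adjusted p = 0.0337, edgeR).

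Other secretory lineages were mixed. Of 12 tested Paneth cell genes 6 were higher and 6 not (median 3.34); the protease Mmp7 had 6.80, 6.24 and 6.83 CPM against 0.532, 0.322 and 0 CPM (4.55 ± 1.02), and defensin counts are uncertain among near-identical copies. Of 12 tested intestinal endocrine genes 4 were higher, 1 lower and 7 not. Secretin (Sct) had 10.2, 23.0 and 14.2 CPM against 0.434, 0.303 and 0.164 CPM (5.72 ± 1.06), and chromogranin A (Chga), which gastric hormone cells also make, was lower at 23.3, 18.4 and 21.2 CPM against 681, 637 and 435 CPM (-4.80 ± 0.74). Of 14 tuft cell genes 1 was higher, Chat (0.92 ± 0.36), and 13 were not called (median 0.05, below 0 without Cdx2+/- cecum replicate 2 or WT stomach replicate 2 or 3). The call of Chat was lost without Cdx2+/- cecum replicate 1 or 2 or WT stomach replicate 1, 2 or 3 (adjusted p between 0.062 and 0.144, edgeR). Avil, a cytoskeletal marker of that lineage, had 332, 340.1 and 290.1 CPM against 303, 249.8 and 385 CPM, with overlapping groups, and 8.90, 8.35 and 7.10 CPM in WT cecum. The distance of Avil from WT cecum does not stand for its list. Of the 14 tuft cell genes 2 were called higher than in WT cecum and 12 were not called (median 0.91).

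**Figure D4:**
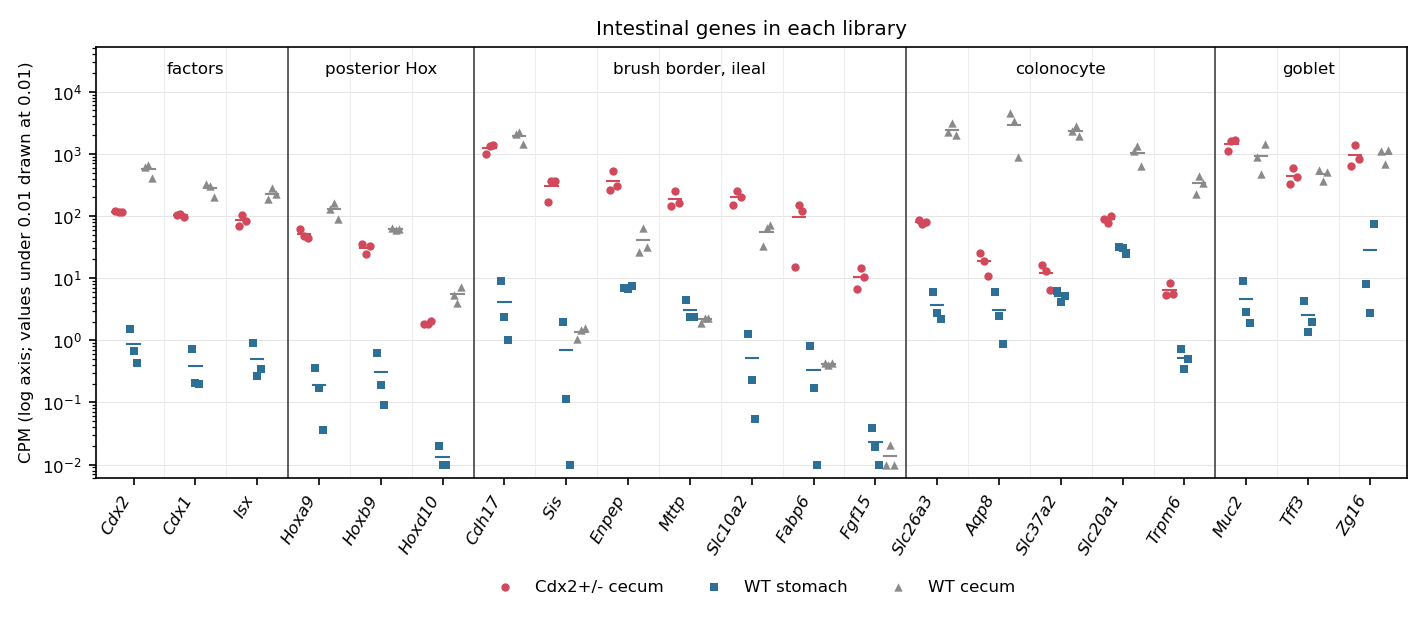
Level of intestinal genes in each library (y axis, CPM on a log axis, values under 0.01 drawn at 0.01), by role; points are libraries and short lines are group means. Regulators and goblet genes of the Cdx2+/- cecum lie far above stomach, Sis and Fgf15 above both references, Aqp8 and Slc37a2 nearer to stomach than to WT cecum, and Slc26a3 between the references.

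Smooth muscle genes were lower in the heterozygous cecum in every case. All 14 members were called lower, with a median of -3.73, and their summed level was 321, 364 and 918 CPM against 3169.7, 6458 and 9125 CPM in stomach and 3108, 1895 and 5573 CPM in WT cecum. Acta2, smooth muscle actin, had 32.7, 37.0 and 109 CPM against 423, 837 and 1378 CPM (-3.89 ± 0.54, adjusted p = 2.06e-05, edgeR), and the myosin Myh11 21.6, 29.7 and 129 CPM against 655, 1377 and 2126 CPM (-4.53 ± 0.80). Against WT cecum 13 of the 14 were lower as well. The libraries did not overlap, and replicate 3 was highest within Cdx2+/- cecum and within both reference organs. How much muscle was dissected is not given, and its part in the other stromal changes was not tested.

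Enteric neuron and glia genes were lower in 13 of 16 cases and not called in 3 (median -3.25). The neuronal hydrolase Uchl1 had 0.456, 0.330 and 0.641 CPM against 3.98, 8.70 and 9.90 CPM (-3.98 ± 0.55). The 3 not called were Ret, S100b and the chloride channel Ano1, which had 112, 117 and 133 CPM against 80.1, 97.4 and 124 CPM.

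Fibroblast and vessel genes differed by less. Of 16 fibroblast and matrix genes 6 were lower and 10 not called (median -0.78), and 2 were higher without WT stomach replicate 3. Fibulin 1 (Fbln1) was lower at 13.1, 24.6 and 22.6 CPM against 103, 115 and 119 CPM (-2.48 ± 0.43), and the collagen Col3a1 had 268, 387 and 438 CPM against 482, 528 and 852 CPM and was not called (-0.77 ± 0.33). Of 12 endothelial genes 6 were lower, 1 higher and 5 not (median -0.70); the receptor Kdr changed by -0.79 ± 0.21 and von Willebrand factor, Vwf, by 1.55 ± 0.48, a call lost without Cdx2+/- cecum replicate 2 or WT stomach replicate 1 or 2 (adjusted p between 0.0502 and 0.0691, edgeR). Of 5 tested mesothelial genes 4 were lower and 1, Upk1b, was higher (2.32 ± 0.64); Upk3b, a marker of the outer lining, had 0.130, 0.174 and 0.0916 CPM against 4.10, 6.53 and 11.1 CPM (-5.75 ± 1.49).

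Most position factors of gut mesenchyme were lower than in stomach. Barx1, a homeobox factor of stomach mesenchyme, had 0.0434, 0.0174 and 0.2198 CPM against 15.6, 29.0 and 33.1 CPM (-8.07 ± 0.93, adjusted p = 5.39e-06, edgeR). Isl1, needed for the pylorus, had 2.04, 2.97 and 1.59 CPM against 21.5, 29.8 and 30.1 CPM (-3.62 ± 0.57), and was nevertheless called above WT cecum (2.49 ± 0.58). In all, 10 of 16 tested members were lower, 2 higher and 4 not, with a median of -2.02. The lower ones also included the Wnt antagonist Sfrp1 (-3.99 ± 0.64), Six2 (-2.15 ± 0.30), Hand2 (-5.25 ± 0.98), Nkx3-2 (-5.63 ± 1.61), Foxf2 (-1.04 ± 0.23), Tbx4 (-1.89 ± 0.66), Sfrp2 (-2.58 ± 0.62) and Tlx2 (-3.58 ± 1.32). The call of Nkx3-2 was lost without WT stomach replicate 3 (adjusted p = 0.0524, edgeR), that of Tbx4 lost without Cdx2+/- cecum replicate 1, 2 or 3 or WT stomach replicate 1 or 2 (adjusted p between 0.0581 and 0.0879, edgeR) and that of Tlx2 lost without Cdx2+/- cecum replicate 1 or 2 or WT stomach replicate 2 (adjusted p between 0.11 and 0.154, edgeR).

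The 2 called higher were Nkx2-3, a homeobox factor of intestinal mesenchyme, at 8.14, 5.96 and 6.34 CPM against 1.79, 2.12 and 2.40 CPM (1.69 ± 0.27), and Foxl1, a factor of fibroblasts under the epithelium (0.86 ± 0.27), whose call was lost without Cdx2+/- cecum replicate 2 or WT stomach replicate 2 (adjusted p between 0.0623 and 0.0785, edgeR). Hand1 had no read in stomach and at most 0.0733 CPM in Cdx2+/- cecum, against 4.53, 2.38 and 3.77 CPM in WT cecum. Foxf1, Hlx and Tbx5 were not called. Against WT cecum 1 of the 16 tested members was called higher, 3 lower and 12 not (median -0.555). Smooth muscle genes moved with these factors, and their part in the change was not tested.

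Hedgehog and BMP genes, which carry signals between epithelium and stroma, were lower in 7 of 15 cases and not called in 8 (median -1.33). Sonic hedgehog (Shh) had 5.60, 7.89 and 6.85 CPM against 37.6, 27.5 and 32.2 CPM (-2.26 ± 0.58) and 0.371, 0.648 and 0.535 CPM in WT cecum, while Indian hedgehog (Ihh) had 82.0, 62.7 and 73.4 CPM against 63.3, 55.3 and 44.2 CPM and was not called. The targets Ptch1 (-1.53 ± 0.36) and Gli1 (-1.87 ± 0.34) and the BMP antagonist Nog (-3.23 ± 0.55) were lower.

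Inflammatory mediators were higher in nearly the whole list. Of 21 members 19 were called higher and 2 not, with a median of 5.11. Interleukin 1 alpha (Il1a) had 22.6, 13.2 and 16.2 CPM against 0.276, 0.265 and 0.182 CPM (6.16 ± 0.37, adjusted p = 3.89e-09, edgeR). Prostaglandin synthase 2 (Ptgs2) had 279.7, 122 and 161 CPM against 7.22, 6.43 and 8.79 CPM (4.65 ± 0.49), and the neutrophil attractant Cxcl1 26.3, 11.9 and 14.9 CPM against 0.434, 0.341 and 0.255 CPM (5.68 ± 0.57). The chemokine Ccl20 (6.28 ± 0.65), Tnf (4.63 ± 0.45) and Il11 (5.84 ± 0.66) were higher too. Il1a, Ptgs2 and Cxcl1 were all highest in replicate 1 and lowest in replicate 2 of the heterozygous cecum.

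Immune cell markers were higher than in stomach for some lineages. Neutrophil genes were higher in 10 of 12 cases (median 4.63), T cell genes in 9 of 12 (2.12) and B and plasma cell genes in 5 of 12 (2.36), with none lower. Against WT cecum 8 neutrophil genes were called higher (median 3.11). Only 1 T cell gene (0.10) and 1 B and plasma cell gene (0.67) were, and 11 of each were not called. The B and plasma cell count against stomach was 3 without WT stomach replicate 1 or 2 and 8 by DESeq2. S100a8, a calcium-binding protein of neutrophils and of squamous epithelium, had 37.8, 0.782 and 7.22 CPM against 0.138, 0.0568 and 0 CPM (7.86 ± 1.604); its order across the heterozygous libraries was that of Krt5, and the part of squamous cells in it was not tested. The granzyme Gzma had 6.75, 9.48 and 6.69 CPM against 0.0789, 0 and 0.0910 CPM (7.02 ± 1.16), and the antibody joining chain Jchain 372, 293 and 324 CPM against 42.1, 19.0 and 12.4 CPM (3.75 ± 0.64). Macrophage genes were higher in 4 of 14 cases with a median of -0.03 (above 0 without replicate 3 of either group), and Csf1r and C1qa were not called. Mast cell genes had 2 higher, Mcpt2 (2.40 ± 0.77) and Fcer1a (1.13 ± 0.43), 2 lower, Tpsab1 (-3.66 ± 0.88) and Cma1 (-1.49 ± 0.54), and 6 not called. They were called about as often as all tested genes (39.1%). The call of Mcpt2 was lost without WT stomach replicate 3 (adjusted p = 0.0782, edgeR), that of Fcer1a lost without Cdx2+/- cecum replicate 1, 2 or 3 or WT stomach replicate 1 or 3 (adjusted p between 0.0548 and 0.175, edgeR) and that of Cma1 lost without Cdx2+/- cecum replicate 1 or 3 or WT stomach replicate 1, 2 or 3 (adjusted p between 0.0525 and 0.145, edgeR).

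None of 8 MHC class II genes was called. Of 18 interferon response genes 1 was higher, Ifit2 (3.10 ± 1.01), and 17 were not called (median -0.67); the call of Ifit2 was lost without Cdx2+/- cecum replicate 2 or WT stomach replicate 2 or 3 (adjusted p between 0.0603 and 0.206, edgeR). This list was uneven within stomach, with a summed level of 4322, 418 and 337 CPM, and within Cdx2+/- cecum, with 576, 1793 and 907 CPM. Without stomach replicate 1 the count higher was 5 and the median turned to 1.69, and without stomach replicate 2 or 3 the count lower was 3 or 4.

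Genes of fetal-like and regenerating epithelium were higher in 9 of 16 cases and not called in 7 (median 2.39). The interleukin 1 antagonist Il1rn had 159.8, 145 and 247 CPM against 2.35, 1.06 and 1.40 CPM (6.84 ± 0.56, adjusted p = 5.75e-08, edgeR). Clusterin (Clu), which marks revival stem cells, had 7496, 7486 and 7547 CPM in Cdx2+/- cecum, 2026, 1275 and 1121 CPM in stomach and 111, 74.4 and 25.2 CPM in WT cecum (2.35 ± 0.51, adjusted p = 0.00139, edgeR). The annexin Anxa8 (4.56 ± 0.51), the growth factor Ereg (4.89 ± 0.57), Ly6d (4.16 ± 0.66) and the keratin Krt7 (3.48 ± 0.65) were higher. Annexin A3 (Anxa3) and Krt19 were not called, and Spp1 had 96.8, 109.6 and 110.4 CPM against 135, 248 and 326 CPM.

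Ligands and receptors of the EGF family were higher in 8 of 11 cases, lower in 1 and not called in 2 (median 0.92). Neuregulin 1 (Nrg1) had 27.1, 25.6 and 31.1 CPM against 5.28, 2.95 and 5.97 CPM (2.56 ± 0.34), amphiregulin (Areg) changed by 2.76 ± 0.62 and the receptor Egfr by 0.92 ± 0.22. Egf itself was lower (-4.12 ± 0.51). Of 14 stem cell genes 5 were higher, 3 lower and 6 not (median 0.37): the Wnt targets Axin2 (2.32 ± 0.42), Ephb2 (3.34 ± 0.27) and Cd44 (3.30 ± 0.35) were higher, and Tnfrsf19 (Troy), a marker of gastric as well as intestinal stem cells, was lower (-3.16 ± 0.52). Of 20 proliferation genes 2 were higher, Rrm2 (0.84 ± 0.23) and Birc5 (0.70 ± 0.25), and 18 were not called (median 0.24), with Mki67 at 169, 161 and 172 CPM against 179, 192 and 217 CPM. The call of Birc5 was lost without Cdx2+/- cecum replicate 1 or 3 or WT stomach replicate 1, 2 or 3 (adjusted p between 0.0515 and 0.096, edgeR), and with the 6 libraries alone 8 proliferation genes were called higher.

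The list of genes secreted by airway-like and defensive epithelium had 6 of 11 tested members higher and 5 not (median 3.84). The antimicrobial lectin Reg3b had 1214, 1557 and 3302 CPM against 8.06, 0.927 and 0.0728 CPM (9.39 ± 1.41) and 6.86, 12.4 and 25.2 CPM in WT cecum, the antibody transporter Pigr 3799, 3710.0 and 3369.9 CPM against 101, 17.8 and 35.2 CPM (6.14 ± 0.58), and surfactant protein D, Sftpd, changed by 3.84 ± 0.95. Reg3b and Reg3g are close copies whose counts are uncertain.

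Besides Reg3b and Fgf15, the 10 largest increases under that rule were in genes outside the lists. Cyp3a25, a drug-metabolising enzyme, had 19.5, 27.9 and 13.0 CPM against 0.0197, 0.0189 and 0 CPM (10.40 ± 1.64). The amino acid carrier Slc7a9 (9.21 ± 1.29), the phosphate carrier Slc34a2 (9.09 ± 1.92), the urea cycle enzyme Otc (9.02 ± 1.19), the peptidase Naaladl1 (9.01 ± 2.08), Ms4a10 (9.15 ± 1.65) and Clca4b (8.85 ± 1.61) followed. Akp3, an intestinal alkaline phosphatase, was uneven, at 28.8, 7.56 and 0.0733 CPM against 0.0197, 0 and 0.0364 CPM (9.16 ± 2.18).

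The 10 largest decreases, besides Chia1, Gif and Barx1, included enzymes better known from the pancreas. The pancreatic-type colipase Clps had 18.4, 40.8 and 175 CPM against 28255, 32296 and 22750 CPM (-8.47 ± 1.56), and phospholipase Pla2g1b 10.5, 16.5 and 71.8 CPM against 12038, 12650 and 10754 CPM (-8.49 ± 1.49). The lipase-related Pnliprp1 (-8.35 ± 1.43), the trypsins Try4 (-8.21 ± 0.99) and Try10 (-7.96 ± 1.02), whose near-identical copies make counts uncertain, the protease Tmprss9 (-7.97 ± 0.67) and the cholecystokinin receptor Cckar (-8.80 ± 1.54) were lower. Within Cdx2+/- cecum, Clps, Pla2g1b and Chia1 were each highest in replicate 3. Of 7 tested pancreas acinar genes 3 were lower, Cel (-6.83 ± 0.51), Rbpjl (-5.56 ± 0.80) and Ptf1a, 2 higher and 2 not (1 higher without any 1 library other than WT stomach replicate 3); Ptf1a, a factor of acinar cells, had no read in Cdx2+/- cecum and 1.38, 1.36 and 0.346 CPM in stomach, while the acinar product Ctrb1 was under 1 CPM in both.

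Of the remaining lists, liver genes had 2 of 9 tested members higher, 3 lower and 4 not, adipose genes 1 of 7 lower and 6 not (0 lower without Cdx2+/- cecum replicate 1 or 3 or WT stomach replicate 2), and skeletal muscle genes 3 of 7 lower and 4 not. Oxidative phosphorylation genes were lower in 3 of 17 cases, against 19.9% of all tested genes, and not called in 14 (median -0.21). Immediate early and heat shock genes were higher in 4 of 14 cases, Fos (1.58 ± 0.50), Hspa1a (2.49 ± 0.97), Hspa1b (2.50 ± 0.86) and Dnajb1 (1.31 ± 0.39). None of these was called without Cdx2+/- cecum replicate 1, and 1 was without stomach replicate 2 or 3, while 7 members were called higher without stomach replicate 1 and 7 with scaling by library size alone.

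**Figure D5:**
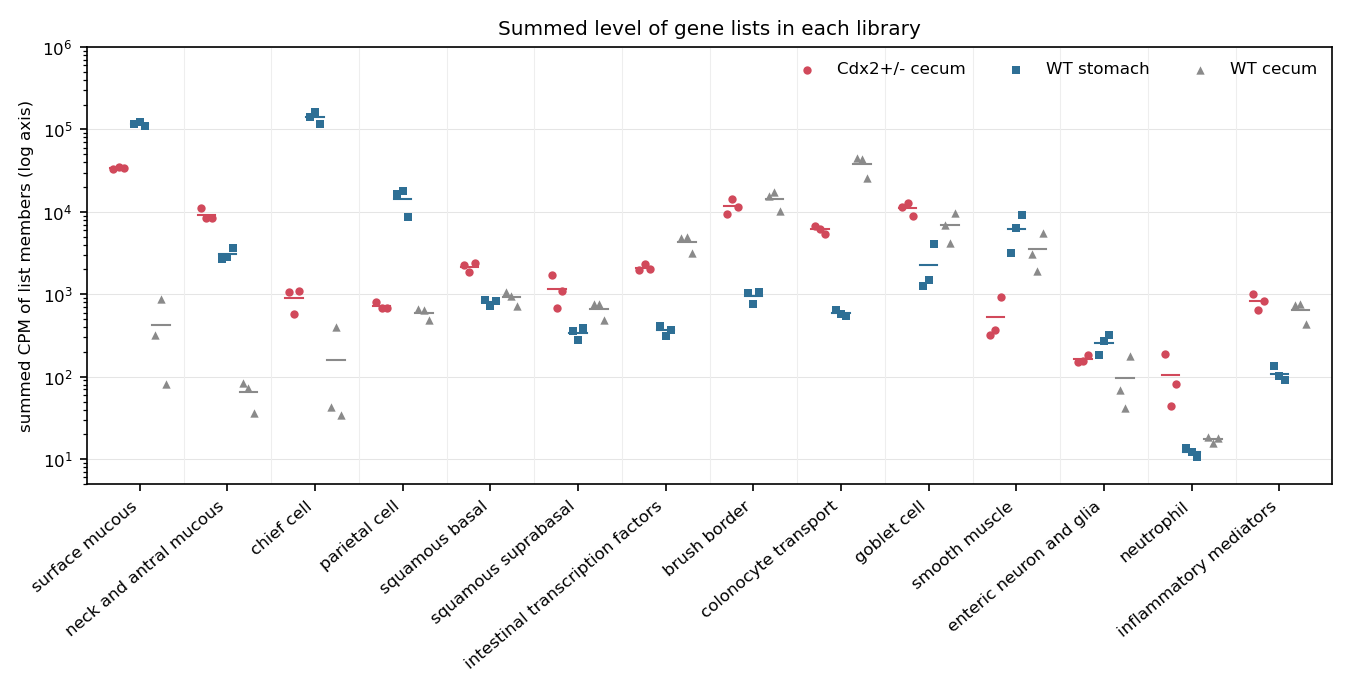
Summed CPM of the members of each gene list (y axis, log axis) in each library; points are libraries of Cdx2+/- cecum, WT stomach and WT cecum and short lines are group means. Surface mucous sums of the heterozygous cecum lie between both references, chief sums far below stomach, parietal sums close to WT cecum, and smooth muscle sums below both.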

How the data were processed

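RNA of mouse tissue was extracted with Trizol and made into libraries with a TruSeq mRNA version 2 kit, per the labels' protocols; such libraries come from poly(A) RNA and carry no strand information. The deposited files hold raw read counts per gene for each library; the submitters' processing notes name CASAVA, TopHat2 2.0.11, HTSeq 0.5.3p3 and the GRCm38 build. Which strand setting was used for counting is not given in the sources used here, nor is the annotation. Of 39179 gene IDs, 37693 matched a symbol in GENCODE M21, holding 99.8% of gene reads. The 5 closing entries of each file that name no gene were left out of library sizes; reads in no feature were 6.62 to 10.3% of the listed total in the 9 untreated libraries.

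Counts were filtered with filterByExpr, scaled by TMM and tested with the quasi-likelihood test of edgeR 4.0.16 in R 4.3.3, with 1 mean for each of the 8 groups of the 24 libraries and Benjamini-Hochberg adjustment over 20502 genes. Alternatives were other scalings, no filter, a test against a 2-fold change, fits on 6 or 9 libraries, DESeq2 1.42.0, a replicate block and each library left out. Nothing states that replicate numbers pair samples, and groups of 3 libraries are too small for correlations to settle it. Deviations of same-numbered Cdx2+/- cecum and stomach libraries correlated at 0.08, -0.02 and 0.12. For Cdx2+/- and WT cecum the values were 0.12, 0.08 and 0.17, and for WT stomach and WT cecum 0.17, 0.03 and 0.33. No pair of replicates agreed within sampling noise.

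The comparison, its members and the 47 gene lists, with 640 entries for 630 genes of which 26 were not tested, were chosen with earlier results of these data known. Genes named are the intestinal and foregut regulators, the 10 largest called changes each way (a mean of at least 10 CPM in the higher group, no overlap of libraries), every member of the 5 gastric epithelial lists and of the 3 lists of foregut, squamous and mesenchymal factors, and from other lists up to 6 called members each way with the smallest adjusted p and up to 4 others of highest level. Anpep, Clu, Enpep, Hoxa13, Krt6a, Prdm1, Sis, Slc26a3 and Slc37a2 were chosen after their values were seen. Some genes that the rule names are not reported here. Promoter sequences are those of RefSeq for GRCm38.p6. Counts of near-identical copies, and of genes that overlap on opposite strands, are uncertain.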

Additional observations from a re-analysis of the deposited data

How the results depend on the processing

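Against stomach, the genes called higher and lower numbered 3936 and 4073. Requiring more than a 2-fold change left 1318 and 1527, and against WT cecum 1064 and 737. Leaving out 1 library gave 2910 to 3450 higher and 3288 to 3747 lower against stomach, and 2755 to 3611 and 2528 to 3463 against WT cecum. With the replicate number as a block the counts against stomach were 3904 and 4039; the block ended the calls of Cym, Slc9a4, Nkx6-3, Chat and Fcer1a among named genes and made one for Pdx1 (2.25, adjusted p = 0.0361). Scaling by library size alone gave 4697 higher and 3265 lower, 59.0% of calls being higher, with the median of all genes at 0.09. Against WT cecum it gave 4044 and 2612, or 60.8% higher.

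Of 169 called genes named, 161 were given a value by all 15 alternatives and 118 of these kept their call and direction in each; 27 of the 169 lost the call when some single library was left out. With the 6 libraries alone 158 of the 169 kept the call and 6 lost it. Of 55 named genes not called, 24 were called in that fit. DESeq2 did not call Pga5 (adjusted p = 0.159) or Ptf1a (adjusted p = 0.267). Among named genes the sign turned for Nkx6-3, which ranged from -4.01 to 0.74 with 1 library left out, and for 4 genes not called. With 1 library left out Avil ranged from -0.10 to 0.21, Ret from -0.0031 to 0.67, S100b from -0.17 to 0.67 and Spdef from -0.067 to 0.22. Avil was -0.0048 with the 6 libraries compared and -0.0054 with 9. The causes were not tested. Genes near 0 reads in a group are limited by depth.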
